A study of Mus musculus with 4 samples.

Results

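The regions described here are the PRDM6 ChIP-seq peaks whose annotated gene encodes a potassium channel, a voltage-gated calcium channel or a Trp channel. They were taken by gene symbol as every peak assigned to a Kcn, Cacn, Trpc, Trpm or Trpv gene, which gave 100 of 13977 peaks (0.715%) and 38 of 5243 annotated genes (0.725%). The Kcn genes held 68 peaks in 23 genes, the Cacn genes 25 peaks in 10 genes and the Trp genes 7 peaks in 5 genes. Family members with no row in the annotation had no peak in the list.

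All 4 samples came from SMCs of the outflow tract of late mouse embryos, grown in culture and infected with a lentivirus for FLAG-tagged PRDM6. The 2 PRDM6 ChIP samples were precipitated with an anti-FLAG antibody, and the 2 Input samples were chromatin without precipitation. The tagged protein was expressed from the virus, and its level beside the cells' own PRDM6 is not given. Cells without it were not analysed here, and the immunoprecipitations are described both as made from 1 sample and as independent replicates. The files held no expression values, so the SMC identity of the cells could not be checked against marker genes, and no channel gene could be called active or silent in them.

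Membrane potential is one of the controls on the contraction of a vascular SMC, beside receptor-coupled pathways. Open potassium channels hold the membrane negative, and their closure lets voltage-gated calcium channels open, admit calcium and start contraction. Many Trp channels pass sodium and calcium and depolarize the cell, and the study's interest in the ductus arteriosus, a fetal vessel that contracts when oxygen rises at birth, is the reason these genes were examined as a group.

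The sequences at the summits of 10 peaks are shown first. They include the strongest peak of each family and peaks of channel genes with a known role in vascular muscle, and all but that of Cacna1c were picked to show a motif, which 27 of the 100 windows held. They are the plus strand of GRCm38 (mm10), 201 bases centred on the summit, and capitals mark an AP-1 motif (TGACTCA or TGAGTCA) or a TEAD motif (AGGAATGC, AGGAATGT, GGGAATGC or GGGAATGT) on either strand. The first 3 are the only peaks of these genes that reached a global irreproducible discovery rate (IDR) of 0.05, and each of them held AP-1 letters, which stood in 25.2% of all 465 peaks of the list at this limit and in 14.3% of all peaks.
Kcnab1 chr3:65138624-65138824: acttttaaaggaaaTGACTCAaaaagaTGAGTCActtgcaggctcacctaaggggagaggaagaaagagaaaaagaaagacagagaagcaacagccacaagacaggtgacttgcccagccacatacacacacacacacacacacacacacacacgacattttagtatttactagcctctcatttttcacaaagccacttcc
Kcnh5 chr12:74825152-74825352: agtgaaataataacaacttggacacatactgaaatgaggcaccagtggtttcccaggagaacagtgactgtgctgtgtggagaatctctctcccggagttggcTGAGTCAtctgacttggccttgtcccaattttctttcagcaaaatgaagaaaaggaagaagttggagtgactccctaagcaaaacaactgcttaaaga
Trpm6 chr19:18746729-18746929: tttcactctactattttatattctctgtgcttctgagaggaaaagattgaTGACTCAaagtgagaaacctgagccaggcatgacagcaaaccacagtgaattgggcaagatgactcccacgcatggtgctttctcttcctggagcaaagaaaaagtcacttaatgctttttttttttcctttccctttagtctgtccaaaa
Cacnb2 chr2:14745916-14746116: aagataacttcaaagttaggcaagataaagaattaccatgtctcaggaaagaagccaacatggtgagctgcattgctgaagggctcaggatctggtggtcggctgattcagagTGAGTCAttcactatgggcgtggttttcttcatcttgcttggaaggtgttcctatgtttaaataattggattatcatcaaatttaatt
Cacna2d1 chr5:16184070-16184270: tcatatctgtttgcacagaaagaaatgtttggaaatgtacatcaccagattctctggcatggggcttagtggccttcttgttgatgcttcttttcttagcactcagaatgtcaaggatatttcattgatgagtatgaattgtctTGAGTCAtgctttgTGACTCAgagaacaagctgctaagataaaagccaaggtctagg
Cacna1c chr6:119052878-119053078: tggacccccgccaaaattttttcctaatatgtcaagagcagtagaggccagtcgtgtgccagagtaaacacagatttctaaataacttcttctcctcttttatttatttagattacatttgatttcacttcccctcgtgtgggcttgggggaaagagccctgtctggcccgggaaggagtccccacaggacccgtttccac
Kcna5 chr6:126569864-126570064: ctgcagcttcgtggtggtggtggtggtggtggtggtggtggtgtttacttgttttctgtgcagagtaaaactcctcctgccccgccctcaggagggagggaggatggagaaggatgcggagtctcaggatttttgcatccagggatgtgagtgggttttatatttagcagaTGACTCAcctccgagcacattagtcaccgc
Kcnn4 chr7:24365742-24365942: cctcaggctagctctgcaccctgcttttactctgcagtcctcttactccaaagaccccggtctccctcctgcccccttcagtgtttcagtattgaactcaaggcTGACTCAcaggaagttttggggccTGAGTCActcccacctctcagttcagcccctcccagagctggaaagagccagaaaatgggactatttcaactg
Kcnma1 chr14:23633363-23633563: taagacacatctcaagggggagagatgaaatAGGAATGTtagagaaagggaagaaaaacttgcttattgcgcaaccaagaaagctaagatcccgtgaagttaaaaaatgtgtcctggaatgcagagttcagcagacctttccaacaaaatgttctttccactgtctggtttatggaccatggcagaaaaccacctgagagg
Kcnh5 chr12:75041974-75042174: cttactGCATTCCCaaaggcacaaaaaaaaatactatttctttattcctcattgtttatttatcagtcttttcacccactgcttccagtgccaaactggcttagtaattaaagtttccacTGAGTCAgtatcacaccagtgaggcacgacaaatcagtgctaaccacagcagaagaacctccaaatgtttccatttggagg
The Cacnb2 sequence is the summit of the strongest calcium channel peak, and the Cacna1c sequence, with neither motif, is that of the main L-type pore. The Kcna5, Kcnn4 and Kcnma1 sequences come from potassium channels of vascular muscle, and the second Kcnh5 sequence is the only summit of the 100 that held both motifs.

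The strength of a peak is given as the −log10 p-value of MACS2, which has 1 value in each immunoprecipitation. These are named here by their order in the list, first-listed and second-listed, and pairs of values follow this order. The matched peak takes the smaller of both. Over all 13977 peaks the median strength was 5.53 (quartiles 4.39 and 6.92), and the highest was 29.0. The background means read back from the p-values were 2.61 and 2.39 fragments, and the peak height could be read for 58.3% and 63.5% of all peaks in the first- and second-listed replicate, with medians of 14 and 13 fragments. Among the channel peaks it could be read for 66 and 75 of 100, which stood at a median of 15 and 13 fragments, with a range of 10 to 27 and of 9 to 28. At these heights a few fragments move a peak across the calling limit, so a channel gene without a peak is one where none was detectable at this depth. There was 1 matched list, no values of Input regions and no second condition, so no comparison over samples was possible and no test is given. The range after each share is its 95% Wilson interval, which reflects counting error alone.

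Of the 141 protein-coding genes of the families, 38 had an assigned peak (27.0%, 20.3 to 34.8), beside 19.7% of all 21924 protein-coding genes. The share was 24.5% in the Kcn family (23 of 94 genes, 16.9 to 34.0), 38.5% in the Cacn family (10 of 26, 22.4 to 57.5) and 23.8% in the Trp family (5 of 21, 10.6 to 45.1). Channel genes are long, and long genes were more often given a peak. The median gene length was 30.8 kb for Kcn, 105 kb for Cacn and 62.8 kb for Trp genes, against 17.4 kb for all protein-coding genes. With all genes weighted to the lengths of each family in 10 classes, the share of all genes with a peak came to 26.6% for Kcn, 40.5% for Cacn and 35.6% for Trp, and each of these values lay inside the interval of its family. A share whose interval holds its length-matched background is not a result about the channel genes. Intervals as wide as that of the 21 Trp genes cannot show that a share equals its background. The plot of gene shares shows the values for each family.

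**Figure D1:**
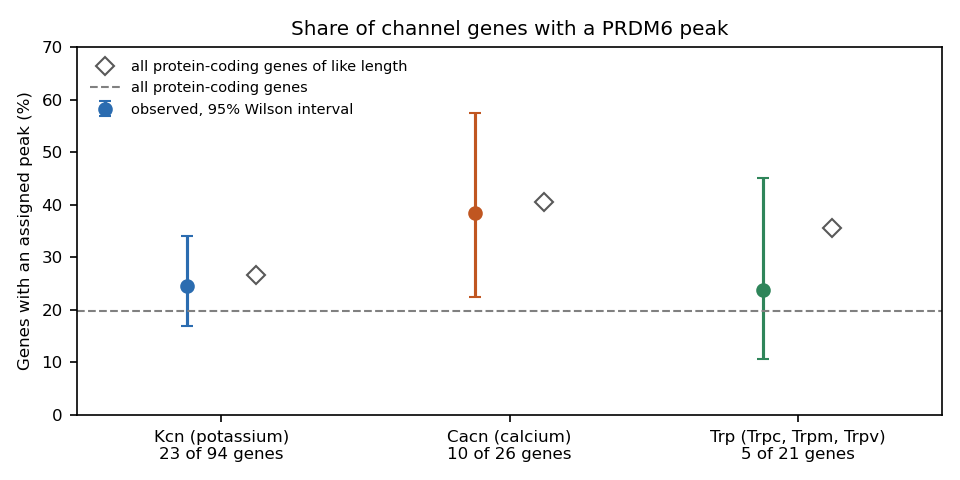
Share of the protein-coding genes of each family with an assigned PRDM6 peak, in percent, with 95% Wilson intervals (circles and bars). Diamonds give the share of all protein-coding genes weighted to the same gene lengths and the dashed line the unweighted 19.7%; the diamonds lie inside all 3 intervals.

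Within classes of length the families together were near all genes. Among genes of 110 kb or more, 24 of 44 channel genes had a peak (54.5%, 40.1 to 68.3) and 56.5% of all 2193 genes did. In the shorter genes the values were 14 of 97 (14.4%, 8.80 to 22.8) and 15.6%. Of these long genes, 13 of 23 Kcn genes, 9 of 13 Cacn genes and 2 of 8 Trp genes (25%, 7.15 to 59.1) had a peak. The long genes without one included Trpc4, Trpc5, Trpc6 and Trpc7, which encode receptor- and store-linked cation channels, and Kcnq1 and Kcnq3 of the same group as Kcnq5. Peaks that overlapped the gene body itself, whatever gene they were assigned to, were found in 14 Kcn genes (14.9%), 7 Cacn genes (26.9%) and 4 Trp genes (19%), beside 14.1% of all genes and length-weighted shares of 21.6%, 36.5% and 30.7%.

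The channel peaks were about as strong as the rest of the list. The median strength was 5.73 for the Kcn peaks (quartiles 4.39 and 7.99), 5.84 for the Cacn peaks (4.08 and 6.39) and 5.42 for the Trp peaks (5.10 and 7.43), against 5.53 for all peaks. The replicates differed by a median of 1.98 on the −log10 scale at channel peaks and by 2 at all peaks, so differences of this size between single peaks lie within the spread between replicates. The first-listed replicate was the higher at 56 of 100 channel peaks and at 52.1% of all peaks. The lowest score of the list, 48, which stands for a global IDR of 0.759, was held by 36 of the 100 channel peaks and by 41.4% of all peaks. Only 3 channel peaks had a global IDR of 0.05 or less (3%, 1.03 to 8.45), beside 3.33% of all peaks.

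**Figure D2:**
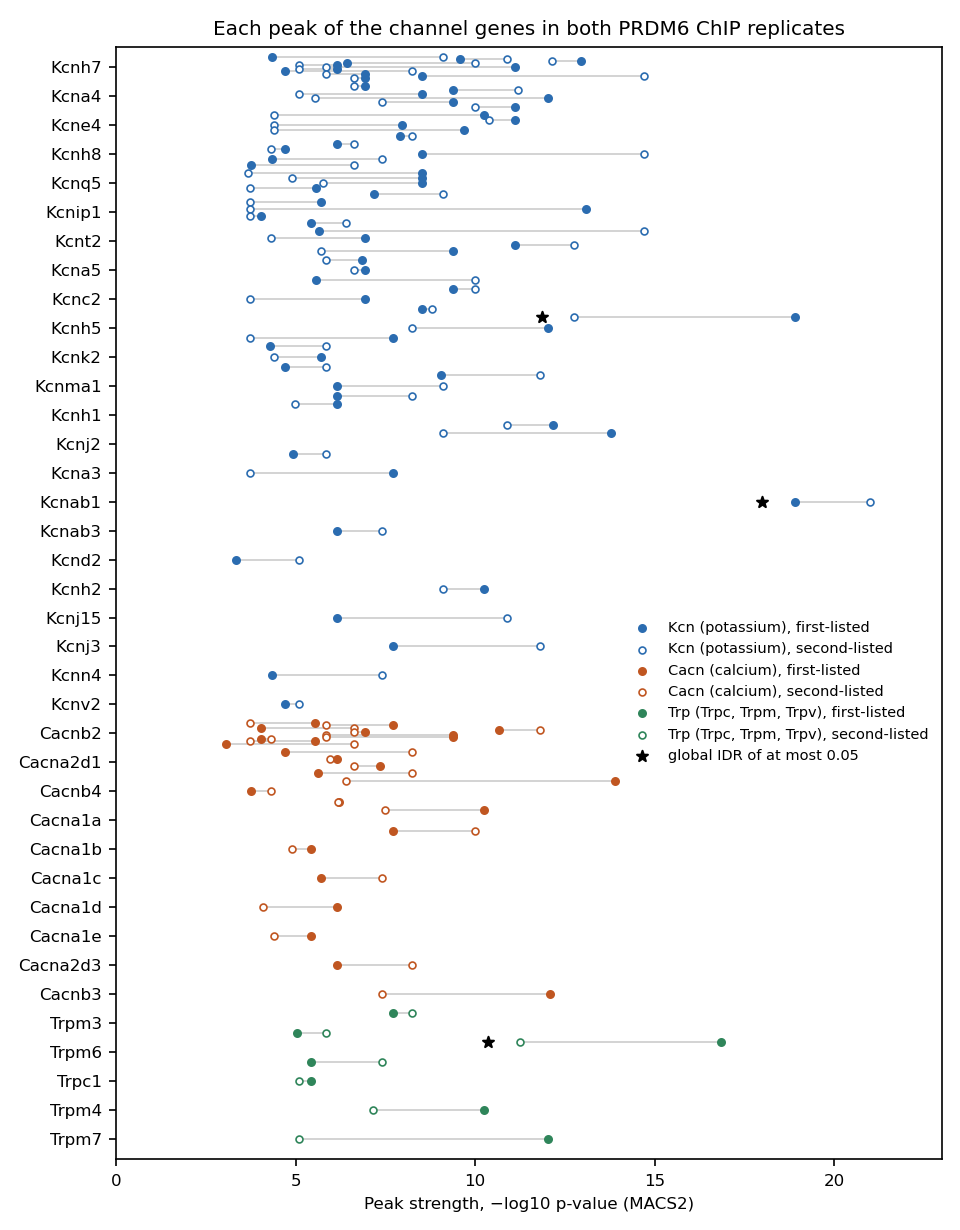
Strength (−log10 p-value) of each of the 100 peaks in the first-listed (filled) and second-listed (open) replicate, joined by a line, by gene and family. Stars mark the 3 peaks that reached a global IDR of 0.05, in Kcnab1, Kcnh5 and Trpm6, and the Kcnab1 peak stands farthest to the right in both replicates.

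The strongest channel peak was in Kcnab1, which encodes a beta subunit that binds voltage-gated potassium channels and speeds their inactivation. It lay at chr3:65138246-65139670 in intron 1, 28.9 kb from the TSS, and was the only peak of the gene. Its strength was 18.9 in the first-listed and 20.99 in the second-listed replicate, with heights of 27 and 28 fragments. It was stronger than 99.7% of the list and was the only channel peak with the highest score of 1000 (global IDR 0.00219). Its summit window held 2 AP-1 motifs, centred 83 and 70 bp before the summit.

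The Kcnh5 peak at chr12:74824600-74825973 was the second of the 3. Kcnh5 encodes a pore subunit of the ether-à-go-go group. The peak stood at 18.9 and 12.8 in the replicates and overlapped an exon of the noncoding gene Gm39473, 351 kb from the TSS of Kcnh5 and outside its gene body. The other Kcnh5 peaks were weaker, at 8.25 in intron 10 and 3.71 in intron 7.

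The third was at chr19:18746283-18747220, 2.76 kb upstream of the TSS of Trpm6, a magnesium-permeable channel with a kinase domain. It stood at 16.8 and 11.3 in the replicates (global IDR 0.0380), with the AP-1 motif 47 bp from its summit. Just outside the limit was the peak of Kcnh7 at chr2:62998782-62999664, with a global IDR of 0.0537 and a strength of 12.1. Strength and IDR ranked these peaks in different orders, since the Kcnh7 peak exceeded the Trpm6 peak in its weaker replicate.

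Voltage-gated potassium channels form the largest potassium channel group, and their pore subunits carried 42 of the 68 Kcn peaks in 12 of 40 genes (30%, 18.1 to 45.4; length-weighted background 27.6%). Of these, 22 peaks belonged to 5 of the 8 Kcnh genes (length-weighted background of genes with a peak 36.5%), whose products carry ether-à-go-go and related currents. Kcnh7 had 11 peaks, the most of any channel gene, and is 491 kb long. Its body held 1.63 peaks per 100 kb, those assigned to other genes counted. The median among all genes with a peak in the body was 2.2. In that gene 7 peaks lay in intron 2, between 17.7 and 248 kb from the TSS, and 4 lay upstream in a run of 5.08 kb, 269 to 273 kb from it. Their strengths ran from 4.33 to 12.1, and only 1 of the 4 upstream peaks, at chr2:63454408-63455243, passed 8 (8.52 and 14.7 in the replicates). A further peak in the body of Kcnh7, at chr2:62724637-62726454, was assigned to Gca and stood at 10.9.

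Kcnh8 had 5 peaks, all in its introns. The strongest, at chr17:52808987-52809715, stood at 8.52 and 14.7, and with the 2 beside it formed a run of 2.57 kb in intron 5. Kcnh1, another ether-à-go-go channel, had an intronic peak of 10.9 at chr1:192307236-192308227 and a weaker one of 4.97 upstream. Kcnh2, which encodes the channel of the rapid delayed rectifier current of the heart, had 1 intergenic peak of 9.10, 47.9 kb from its TSS. The Kcnh peaks thus spread over introns, intergenic sequence and, for the strongest Kcnh5 peak, a noncoding exon, and none was in the promoter class.

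Kcna4, an inactivating Kv channel, had 6 peaks, all intergenic. Their distances ran from 30.8 to 869 kb downstream, and 3 of them lay within 3.27 kb at the far end, where the strongest reached 9.98. Kcna5 encodes a delayed rectifier subunit studied in oxygen-sensitive vascular muscle. Its 3 peaks were also intergenic, 34.1 and 39.9 kb upstream and 64.6 kb downstream, at strengths of 6.61, 5.56 and 5.84. The replicates gave 6.92 and 6.61 at chr6:126569554-126570049, whose sequence is shown above, 5.56 and 9.98 at the second and 6.84 and 5.84 at the third. The Kcna5 peaks were thus stronger than 50.3% to 67.9% of the list, and AP-1 letters stood in 2 of the 3 summit windows, a share of few windows beside 14.3% of all.

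Kcnq5 encodes a slowly activating channel of vascular muscle. All 5 of its peaks lay in intron 1, from 19.1 to 232 kb from the TSS, with strengths between 3.68 and 7.17. A further 3 peaks inside the gene body were assigned to Khdc1b, and they stood at 6.96, 3.83 and 6.77. The gene body therefore held 8 peaks over its length (1.42 per 100 kb, beside the median of 2.2), none with a global IDR of 0.05 or less. Kcnb2 in the same way had 1 peak inside its body, of 4.39, that was assigned to Terf1, and it is counted above as a gene without an assigned peak.

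The accessory subunits of Kv channels had 11 peaks in 4 of 13 genes (30.8%, 12.7 to 57.6; length-weighted background 24.7%). Besides Kcnab1, these were Kcne4, Kcnip1 and Kcnab3. Kcne4, a single-pass subunit that can inhibit Kv channels, had 5 peaks, of which 4 lay in an intron of another transcript downstream of it. The strongest, at chr1:78860261-78860887, stood at 11.1 and 10.4 in the replicates and held an AP-1 motif 92 bp from the summit.

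Kcnip1 encodes a calcium-binding partner of Kv channels. Its 4 peaks lay in intron 1 and were weak, from 3.71 to 5.42. One of them, at chr11:33660472-33661151, stood at 13.1 in one replicate, the first-listed, but only 3.71 in the other, the widest gap among the Kcnip1 peaks. Kcnab3, a beta subunit like Kcnab1, had 1 peak of 6.15 that lay 0.142 kb upstream of its TSS.

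Calcium- and sodium-activated potassium channels had 8 peaks in 3 of 12 genes (25%, 8.89 to 53.2; length-weighted background 35.1%). Kcnma1 encodes the pore of the large-conductance calcium-activated channel that limits contraction of vascular SMCs. Its 3 peaks lay in introns 1 and 2, and the strongest, at chr14:23633250-23633684, stood at 9.06 and 11.8 in the replicates, in that order, and held a TEAD motif. The other 2 had equal values of 6.15 in the first-listed replicate, and 9.10 and 8.25 in the second-listed. Kcnmb1, the beta subunit that tunes this channel to calcium in SMCs, had no peak.

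Kcnn4, an intermediate-conductance channel found in proliferating SMCs, had 1 intergenic peak 4.29 kb upstream of its TSS. It stood at 4.33 and 7.42, and its summit window held 2 AP-1 motifs, 7 and 31 bp from the summit. Kcnt2, a sodium-activated channel, had 4 intronic peaks. The strongest, at chr1:140429280-140429798, stood at 11.1 and 12.8 with a TEAD motif at 71.5 bp. The others stood between 4.31 and 5.70.

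Inward rectifiers, which hold the resting potential, had 4 peaks in 3 of 15 genes (20%, 7.05 to 45.2; length-weighted background 21.9%). Kcnj2, the classical strong inward rectifier, had 2 peaks, but these lay 696 and 780 kb from its TSS. The nearer one stood at 13.8 and 9.10. Kcnj8 and Kcnj11, the pores of ATP-sensitive channels, had none. The K2P leak channels had the fewest genes with a peak among the potassium channel groups, with 1 of 14 (7.14%, 1.27 to 31.5; length-weighted background 23.5%). This was Kcnk2, a stretch-sensitive leak channel, with 3 peaks of 4.28, 4.39 and 4.71, all at the lowest score.

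The 25 calcium channel peaks lay in 10 genes, and all 3 subunit groups that form the core of the channel were among them. Pore subunits had 6 peaks in 5 of 10 genes (50%, 23.7 to 76.3; length-weighted background 47.5%). Cacna1c, the pore of the L-type channel that carries most calcium entry in vascular SMCs, had 1 peak, at chr6:119052759-119053142 in intron 2, with 5.69 and 7.42 in the replicates. Cacna1d, the other L-type pore expressed widely, had 1 peak of 4.08, and this lay inside the neighbouring gene Dcp1a, 6.89 kb upstream of Cacna1d.

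Cacna1a, the P/Q-type pore, had 2 peaks. One lay at chr8:84388573-84388968, 0.133 kb from the TSS, with 10.2 and 7.47 in the replicates, and the other, of 7.71, was annotated to an exon of a short Cacna1a transcript and also overlapped an exon of the noncoding gene Gm16183. Cacna1b and Cacna1e, the N-type and R-type pores, had 1 peak each, of 4.91 and 4.39. Cacna1g and Cacna1h, the T-type pores of vascular muscle, had none.

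Beta subunits bring the pore to the membrane and set its gating, and they had 14 of the 25 peaks, in 3 of 4 genes (75%, 30.1 to 95.4; length-weighted background 34.7%). Cacnb2 alone had 10. Of these, 9 lay inside the gene and 7 of them in intron 2. With 1 more assigned to Gm13315, the body held 2.6 peaks per 100 kb, beside the median of 2.2. The strongest, at chr2:14745477-14746290, stood at 10.7 and 11.8 in the replicates and overlapped an exon of the noncoding gene Gm13269 within Cacnb2. The other 9 were between 3.05 and 6.61, so the gene combined 1 strong peak with many near the calling limit. AP-1 letters stood in 4 of the 10 summit windows, beside 14.3% of all windows, and the peaks of 1 gene are not independent.

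Cacnb4 had 3 intronic peaks of 6.39, 3.75 and 6.19. At the first of these the replicates were far apart, at 13.9 and 6.39. Cacnb3, the beta subunit with a role in arterial SMCs, had 1 intergenic peak 4.14 kb upstream that stood at 12.1 and 7.42.

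The alpha-2-delta subunits, which raise channel density at the membrane, had 5 peaks in 2 of 4 genes (50%, 15 to 85; length-weighted background 56.5%). Cacna2d1 had 4 of them, in 2 runs of 1.16 and 4.51 kb in introns 1 and 4, with strengths of 4.71, 5.95, 6.61 and 5.63. Cacna2d3 had 1 peak of 6.15 in intron 27. The Cacng genes, which encode gamma subunits and related proteins of muscle and brain, had no peak in any of 8 genes (interval up to 32.4%; length-weighted background 26.8%).

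The 7 Trp peaks lay in 4 of 8 Trpm genes (50%, 21.5 to 78.5; length-weighted background 42.7%) and 1 of 7 Trpc genes (14.3%, 2.57 to 51.3; 43.1%). None of the 6 Trpv genes had one (interval up to 39.0%; 17.5%). Besides the peak upstream of it, Trpm6 had a second one of 5.42 in intron 38. Trpm7, a relative of Trpm6 with the same channel and kinase design, had 1 peak at chr2:126792303-126793939, with 12.03 and 5.10 in the replicates. It overlapped an exon of Trpm7 itself.

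Trpm4, a calcium-activated cation channel that depolarizes arterial SMCs, had 1 peak, which stood at 10.2 and 7.14. Trpm3 had an intergenic peak of 7.71 and an intronic one of 5.04, both over 100 kb from the TSS. Trpc1, a store-linked cation channel subunit, had 1 peak of 5.10, and this lay inside the neighbouring gene Pls1, 21.4 kb upstream of Trpc1. The Trp genes of vascular muscle without a peak included Trpc4, Trpc5, Trpc6, Trpv1, Trpv2 and Trpv4.

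Lists of channels with a known role in vascular SMCs were counted in the same way. Of 15 potassium channel genes, 6 had a peak (Kcna5, Kcnj2, Kcnk2, Kcnma1, Kcnn4 and Kcnq5; 40%, 19.8 to 64.3), against a length-weighted background of 26.1%. Those without one included Kcna2, Kcnj8, Kcnj11, Kcnk3, Kcnk6, Kcnmb1 and Kcnq1. Of 7 calcium channel genes, 5 had a peak (Cacna1c, Cacna1d, Cacna2d1, Cacnb2 and Cacnb3; 71.4%, 35.9 to 91.8), against 45.1%. Of 10 Trp genes, 3 did (30%, 10.8 to 60.3), against 34.7%. All 3 intervals held the length-weighted background. None of the peaks in these lists had a global IDR of 0.05 or less.

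Introns held 64 of the 100 (64.0%, 54.2 to 72.7), beside 35.9% of all peaks, and the share of all peaks weighted to the lengths of the channel genes was 44.7%. Intergenic sequence held 25 (25%, 17.5 to 34.3), beside 37.2%, but the length-weighted share of 29.9% lay inside this interval. Of the 64 intronic peaks, 56 were in an intron of the assigned gene and 8 in an intron of another transcript. First introns held 19 of the 100 (19%, 12.5 to 27.8), an interval that held the 12.6% of all peaks. Of the 3 exonic peaks, that of Cacna1a was annotated to an exon of a transcript of its own gene, and those of Cacnb2 and Kcnh5 overlapped exons of noncoding genes.

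Promoter peaks, within 3 kb of the TSS of a transcript, were 8 of the 100 (8%, 4.11 to 15), beside 21.3% of all peaks and 20.2% with length weighting. The Kcn family had 3 of 68 (4.41%, 1.51 to 12.2), the Cacn family 2 of 25 (8%, 2.22 to 25) and the Trp family 3 of 7 (42.9%, 15.8 to 75). The Trp share rested on 7 peaks in 5 genes, and peaks of 1 gene are not independent, so the families were not compared with each other. With promoters limited to 1 kb the Trp share was 0%, while those of Kcn and Cacn stayed at 4.41% and 8%, beside 14.7% of all peaks. A promoter peak was found in 7 of the 38 genes (18.4%, 9.22 to 33.4), beside 41.3% of all protein-coding genes with a peak and 41.1% of those weighted to the same lengths.

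No channel peak overlapped a TSS (0 of 100, with an interval up to 3.7%, or 3% by a floor of 3 counts), beside 6.64% of all peaks. By gene this was 0 of 38 (upper limit of the interval 9.18%), against 757 of 4314 genes with a peak (17.5%, or 18.1% with length weighting). Of the 8 promoter peaks, only those of Cacna1a and Kcnab3 had a summit within 3 kb of the outer start of the gene (0.283 and 0.252 kb from it), where 63.3% of all promoter peaks of protein-coding genes did. The summits near Kcnk2 lay 187 and 186 kb inside the gene, that of Cacnb2 161 kb and that of Trpm4 20.5 kb. That of Trpm7 lay 83.5 kb inside, near the far end of a gene of 84.7 kb. These peaks were within 3 kb of the starts of shorter transcripts. Trpm6 was at 3.15 kb upstream.

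**Figure D3:**
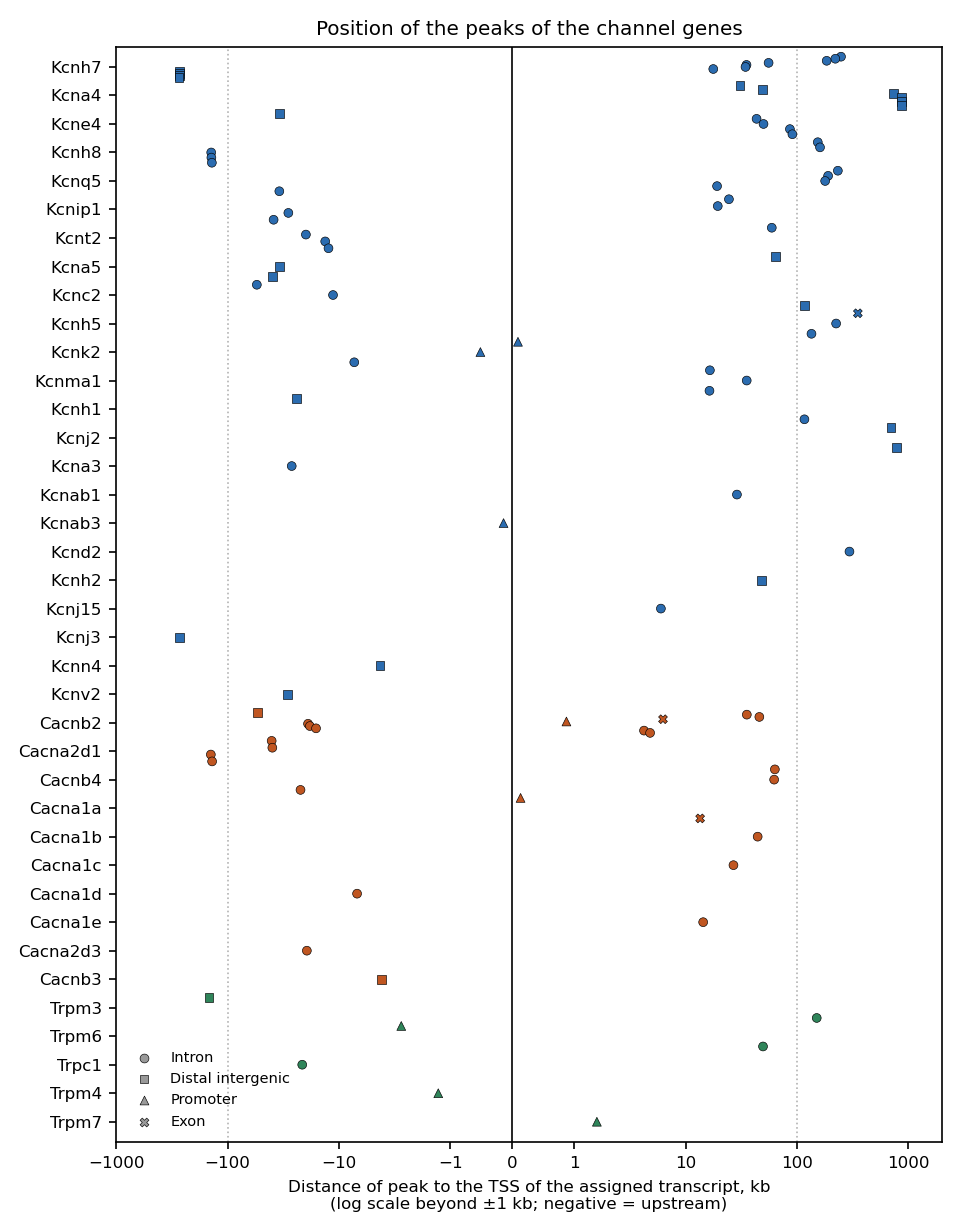
Distance in kb of each of the 100 peaks to the TSS of its assigned transcript, by gene, on a scale that is linear within 1 kb and logarithmic beyond, with negative values upstream. The marker gives the annotated region and the colour the family (Kcn blue, Cacn orange, Trp green), and 8 peaks (triangles) lie at promoters while 32 lie beyond the dotted lines at 100 kb.

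Many of the assignments were over long distances. The distance exceeded 100 kb for 28 of 68 Kcn peaks (41.2%), 2 of 25 Cacn peaks (8%) and 2 of 7 Trp peaks (28.6%), together 32 of 100 beside 19.3% of all peaks. All peaks of Kcnd2, Kcnh5, Kcnh8, Kcnj2, Kcnj3 and Trpm3 were that far from the TSS of the assigned transcript. By gene, 18 of the 23 Kcn genes with a peak had a peak within 100 kb, as had 10 of 10 Cacn and 4 of 5 Trp genes. Over all protein-coding genes with a peak this was 4093 of 4314. Which gene a peak beyond 100 kb acts on, if any, was not tested. In all, 64 of the 100 peaks lay inside the body of the gene to which they were assigned, 39 of the Kcn, 21 of the Cacn and 4 of the Trp peaks. The interval of this share (54.2 to 72.7%) held the length-weighted 59.7%, and 53.3% of all peaks of protein-coding genes lay in the body of their gene.

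Kcnh7, Cacnb2 and Kcna4 held 27 of the 100, and the like share over all genes was not computed. These genes lie on chromosome 2, which carried 33 channel peaks beside 7.41% of all peaks. By the shares that follow, the channel peaks gathered about as much as the whole list. Of the 38 genes, 20 had 2 or more peaks (52.6%), beside 52.4% of all protein-coding genes with a peak. Another peak lay within 1000 bp of 22 of the 100, beside 25.9% of all peaks. Peaks of 1 gene were not taken as independent sites, and merging those within 1000 bp left 60 Kcn, 21 Cacn and 7 Trp regions.

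**Figure D4:**
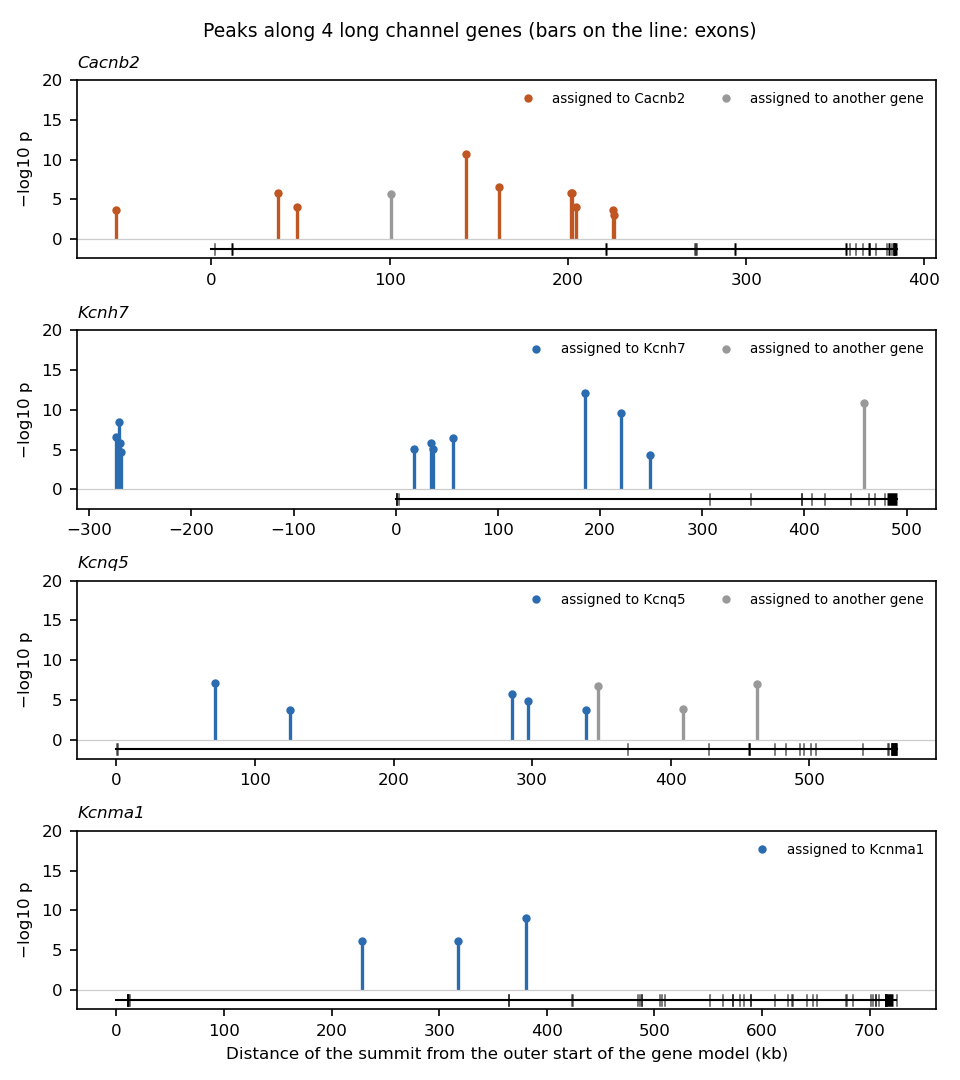
Strength (−log10 p-value) of each peak along Cacnb2, Kcnh7, Kcnq5 and Kcnma1, with the distance of the summit from the outer start of the gene in kb and exons as bars on the gene line. Coloured peaks were assigned to the gene and grey ones to another gene; most stand over long introns and none over the outer start.

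AP-1 is the dimer of Fos and Jun proteins, and TEAD proteins are the DNA-binding partners of the Hippo pathway coactivators. The AP-1 letters stood in 21 of the 100 summit windows (21%, 14.2 to 30), in 13 Kcn, 6 Cacn and 2 Trp peaks, beside 14.3% of all peaks. In windows of the same length 1000 bp to either side they stood in 6 of 200 (3%) for the channel peaks and in 3.86% for all peaks. The channel windows thus held the letters more often than their own flanks, as the whole list did, and the interval of their share reached down to the share of all peaks.

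TEAD letters stood in 7 of the 100 (7%, 3.43 to 13.7), beside 7.45% of all peaks, and in 3 of 200 flanks (1.5%) beside 3.27%. They were in Cacna1b, Cacna2d1, Kcne4, Kcnh5, Kcnh7, Kcnma1 and Kcnt2. The closest to a summit was in Kcnh7, 1.5 bp from it, at chr2:63149001-63149694. Either motif was found in 27 of the 100 channel windows and in 20.7% of all windows. Both were found in 1 channel window, that of Kcnh5 shown above, and in 1.03% of all. A match of letters is a description of the window and does not show that either factor was bound.

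**Figure D5:**
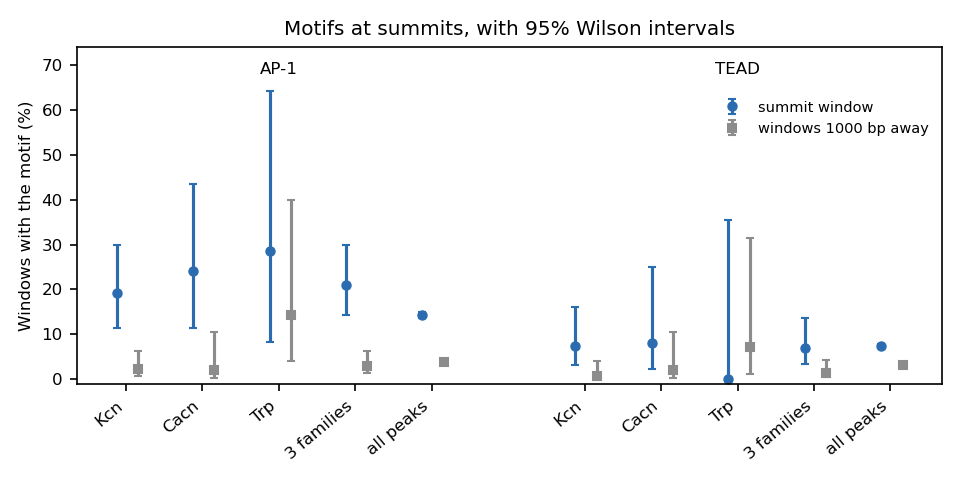
Share of 201-base windows with an AP-1 or a TEAD motif at the summit (circles) and in windows 1000 bp to either side (squares), in percent with 95% Wilson intervals, by family and over all peaks. The AP-1 share at the summit is 21% for the 3 families and 14.3% for all peaks, against 3% and 3.86% beside them.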

How the data were processed

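The samples were 2 PRDM6 ChIP and 2 Input libraries, grouped by the titles in the labels. Per the methods and the submitters' processing notes, the authors aligned paired reads with a mapping quality of at least 13 to mm10 with BWA and called peaks in each immunoprecipitation against its own input with MACS2 at a p-value limit of 0.001. The peaks of both were matched by IDR and annotated. Versions and the annotation tool are not given in the sources used here. The deposited score is the scaled IDR (540 for 0.05), and the deposited −log10 p-values are those of MACS2, 1 per replicate. Which sample was listed first is not known, and the Input group entered only through the peak calls.

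Members were chosen by symbol, and the members and lists were chosen with earlier results of these data known. Promoter, intron and distance classes are those of the deposited annotation. A peak counts as overlapping by 1 bp or more. Gene lengths came from GENCODE M21 basic models (1 per symbol), and length-weighted shares apply the share of all genes, in 10 classes of length, to the genes of a list. Fragment heights were read where a p-value came within 0.0002 of a Poisson tail at the background mean. The motif search, the heights and the weighting were tested on simulated data. Sequences are GRCm38. The genes named are the 10 Kcn, 4 Cacn and 4 Trp genes with most peaks, unless over 4 tied, the genes of the strongest peaks, those with a global IDR of 0.05 or less, and the vascular lists, of which some genes are not reported here by name. The remaining genes with a peak that are named (such as Kcnh1, Kcnh2, Kcnab3, Kcnb2, Kcnd2, Kcnj3, Cacna1b, Cacna1e and Cacna2d3) were named after their values were seen. The tools were pysam 0.24.0, matplotlib 3.10.9, SciPy 1.17.1, pandas 2.3.3 and NumPy 2.4.6, under Python 3.11.15. Alternatives were other IDR and distance limits, overlap of the gene body, each replicate alone, narrower promoters, 20 length classes and a narrower motif window.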

Additional observations from a re-analysis of the deposited data

How the results depend on the processing

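Of 34 alternative values, 21 stayed close to those reported. With a global IDR of 0.05 or less, 2 peaks in 2 Kcn genes, 0 in 0 Cacn genes and 1 peak in 1 Trp gene remained. Within 100 kb of the TSS there were 40 Kcn peaks, and 14 Kcn genes had a peak on the gene body. The median strength of the Trp peaks was 7.14 to 7.71 with a replicate left out, since the matched value is the smaller of both. Promoters of 1 kb held 0% of the Trp peaks. Within 50 bp of the summit, AP-1 letters stood in 10% and TEAD letters in 3% of the channel windows, beside 7.61% and 4.09% of all windows of this length. Merging peaks within 1000 bp, an alternative chosen after seeing the data, moved no family's count by over 1.5 times. The motif shares at the summits of each replicate alone were planned and not run. Depth limits what an absent peak means. No paired analysis was possible because the list gives 1 matched region set and names its replicates only by order.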

Other observations

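Genes that act with these channels in excitation-contraction coupling were described in the same way. Of 45 genes on a list of calcium stores, pumps, exchangers and contractile kinases, 20 had a peak (44.4%, 30.9 to 58.8), against a length-weighted 36.7% of all protein-coding genes, and they held 77 peaks. Atp2b1, a plasma membrane calcium pump, had 11 peaks, with strengths from 4.39 to 8.61, of which 5 lay within 100 kb of the TSS and 2 peaks overlapped its body. Camk2d, a calcium- and calmodulin-dependent kinase, had 10, and 9 peaks overlapped its body. Itpr1, the store calcium release channel, had 9, from 4 to 10.9, and Prkg1, the cGMP-dependent kinase of vascular relaxation, had 8. Cav1, Rock2 and Slc8a1 had 6 each, and 2 of the 6 of Slc8a1 lay within 100 kb. The peak of Stim1, the sensor of calcium store filling, stood at 14.7 and 1 of 2 peaks of Atp2b4 at 11.4, and these were the genes of the list with a global IDR of 0.05 or less. Orai1, Orai2 and Orai3, the channels that Stim1 opens, had no peak.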
